A study of Arabidopsis thaliana with 4 samples.

Results

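ECS1, AOP3, AT4G33720, AT1G23960, AT5G26260, AT2G44200 and AT4G13860 are 7 Arabidopsis thaliana genes that gave a much dimmer signal in plants labelled gpa1 than in the Wassilewskija wild type (WS). They were chosen by their intensities on these same 4 arrays, where both gpa1 arrays read far below both WS arrays, so that difference is described here and not tested. Each has 1 probe set annotated to it alone. The 7 are among 13350 genes with a probe set of their own, of which 7233 were bright enough to be tested, and the array holds 13647 tested probe sets among 22746 when those with several genes or no name are counted. Whole plants 10 days old were compared, with 10 plants pooled for each RNA sample and 1 array for each of 4 groups. The groups were WS without abscisic acid (ABA), WS given 100 µM ABA for 3 h, gpa1 without ABA and gpa1 given the same ABA treatment. The labels place all 4 groups in ecotype ws-2, and they give the gpa1 plants a different seed stock from the wild type and a T-DNA insertion. No group had a replicate, so genotype, seed stock and the single pool of plants cannot be told apart.

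GPA1 encodes the G protein alpha subunit, part of a heterotrimeric membrane switch that takes part in responses to ABA, the hormone of drought and seed dormancy. Natural accessions of Arabidopsis differ in which genes they carry and express, and 2 of the 7 genes are known for it. AOP3 lies in a small tandem family on chromosome 4 whose members modify the side chain of methionine-derived glucosinolates, the sulfur-containing defence compounds of cabbage relatives, and accessions differ in which of the family they express. ECS1 is a pathogen-inducible gene for a protein of the cell wall, and its expression was described as dependent on the accession. Array probes were designed on the sequence of another accession, Columbia, so a dim probe set can hold less transcript or a transcript that matches the probes poorly, and these values cannot tell the 2 apart.

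The values used are intensities of probe sets on a linear scale, as deposited. Values at or below 19.2, the 30th percentile over all arrays, are treated as lying at a floor, where they have no order and give only a bound for a fold. The array labelled WS control had a scanner background of 56.26, against 67.04 to 69.51 on the other arrays. Shoot and root genes were present on all arrays, as whole plants require. The 4 tested shoot markers had averaged gpa1 minus WS differences from -0.19 to 0.03 on the log2 scale and the 4 tested root markers from -0.22 to -0.01. These averages hide differences of opposite sign without and with ABA. The root markers EXPA7 and EXPA18 had -0.74 and -0.81 without ABA but 0.73 and 0.43 with ABA, and the shoot marker RCA had -0.34 and 0.34. Only LHCB4.3 (shoot) and AT5G17820 (root) were dimmer in gpa1 both without and with ABA. Whether the pools differed in tissue content was not tested. The 1 named seed marker, M17, lay at the floor on every array. The labels give the insertion as At3g26300, while the annotation places GPA1 at AT2G26300. The probe set of AT3G26300, a cytochrome P450 gene named CYP71B34, read 105 and 122 in WS and 117 and 105 in gpa1, without and with ABA. The annotation used here names no probe set for GPA1, so the genotype was not checked on it. Tested probe sets without a named gene stay in the counts over all tested probe sets. Whether any of them belongs to GPA1 was not examined.

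ECS1 and AOP3 showed the widest gaps. ECS1 read 1402 on the WS control array and 1382 on the WS array with ABA, and 42.3 and 35.7 on the matching gpa1 arrays. The WS signal of ECS1 was thus 33.2-fold that of gpa1 without ABA and 38.7-fold with ABA, and its gpa1 signal still lay above the floor. AOP3 had an intensity of 585 in untreated WS plants and 791 after ABA, against 3.4 and 5.1 in gpa1. Both gpa1 values of AOP3 were below the floor, so WS was at least 30.5-fold higher without ABA and at least 41.2-fold higher with it. For either gene the 2 WS arrays stood together and far above the 2 gpa1 arrays.

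AT4G33720, a member of the CAP family of small secreted proteins to which the defence marker PR-1 belongs, was dimmer in gpa1 but not near the floor. In WS its intensity was 326 without and 300.2 with ABA, and in gpa1 it was 82.7 without and 46.0 with ABA. WS exceeded gpa1 by 3.94-fold without ABA and by 6.53-fold with ABA. The description of the genes as nearly silent therefore holds least for AT4G33720: 2 of the 7, AT4G33720 and ECS1, stayed above the floor on all 4 arrays, and the other 5 lay at or below it on both gpa1 arrays. Of these 5, the number at the floor was 3 once it was set at the 15th percentile.

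The annotation used here gives no name to AT1G23960, AT5G26260, AT2G44200 and AT4G13860, and their WS signals were modest. AT1G23960 read 68.6 and 94.7 in WS, without and with ABA, and 3.0 and 2.4 in gpa1. That made WS at least 3.57-fold higher without ABA and at least 4.93-fold higher with ABA. AT5G26260 read 110.3, 57.4, 17.6 and 5.8 in the same order of arrays, all WS values above all gpa1 values. Its WS signal was at least 5.74-fold and at least 2.99-fold that of gpa1. AT4G13860 read 67.4, 46.4, 4.7 and 2.8, at least 3.51-fold and at least 2.42-fold higher in WS. In these 3 genes every gpa1 value is below the floor.

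AT2G44200 was the member with the smallest gap on 1 pair of arrays. Untreated WS plants gave 41.8 and ABA-treated ones 80.0, and the gpa1 values were 19.2 and 18.5, the first of them at the floor itself. WS was at least 2.18-fold higher without ABA and at least 4.17-fold higher with ABA. In none of the 7 genes did the WS and gpa1 arrays overlap, which the choice of the genes fixes. With the floor at the 45th percentile, 3 of the 7 still differed by 2-fold on both pairs.

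**Figure D1:**
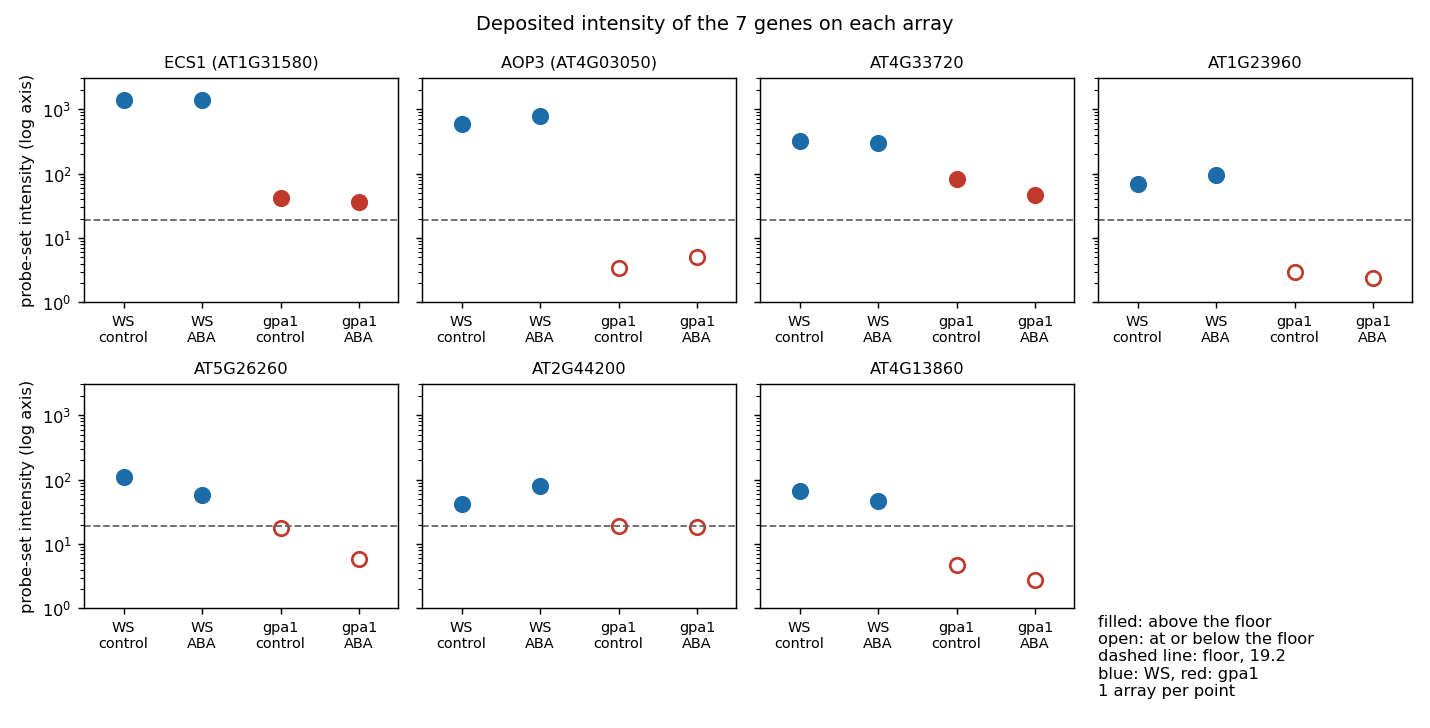
Deposited probe-set intensity (log axis) of each of the 7 genes on the 4 arrays, WS in blue and gpa1 in red, 1 array per point. The dashed line is the floor of 19.2, and open symbols lie at or below it. The gpa1 points of ECS1 and AT4G33720 lie above the line and those of the other 5 genes at or below it.

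Among all tested probe sets, 36 were at least 2-fold dimmer in gpa1 on both pairs of arrays, 0.264% of those tested, and all 7 genes are among them by choice. In the opposite direction 19 were at least 2-fold brighter, or 0.139%. A floor at the 45th percentile lowered the dimmer count to 21, and testing only above the 60th percentile gave 16 dimmer and 12 brighter. On a single pair of arrays, 95% of tested probe sets had a gpa1 minus WS difference between -0.66 and 0.67 on the log2 scale without ABA and between -0.77 and 0.67 with ABA, with medians of 0.00 in each. The 7 genes had a median difference of -1.98 without ABA and -2.30 with ABA, where 5 of the gpa1 values are floors. At least 4-fold dimmer on both pairs were 7 probe sets, 0.0513% of those tested, ECS1 and AOP3 among them.

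Of the tested probe sets, 10 (0.0733%) reached the floor in gpa1 with and without ABA while WS was at least 2-fold brighter on both pairs, and 6 of these name 1 gene: 5 of the 7 genes and CXE20. The reverse, both WS arrays at the floor, held for 1 probe set, that of AT5G54020, with values of 19.1 and 14.0 in WS against 60.1 and 43.4 in gpa1. These counts became 1 and 0 when the floor was the 15th percentile, a setting that also changed which probe sets passed the filter and left 4 of the 7 genes among them.

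**Figure D2:**
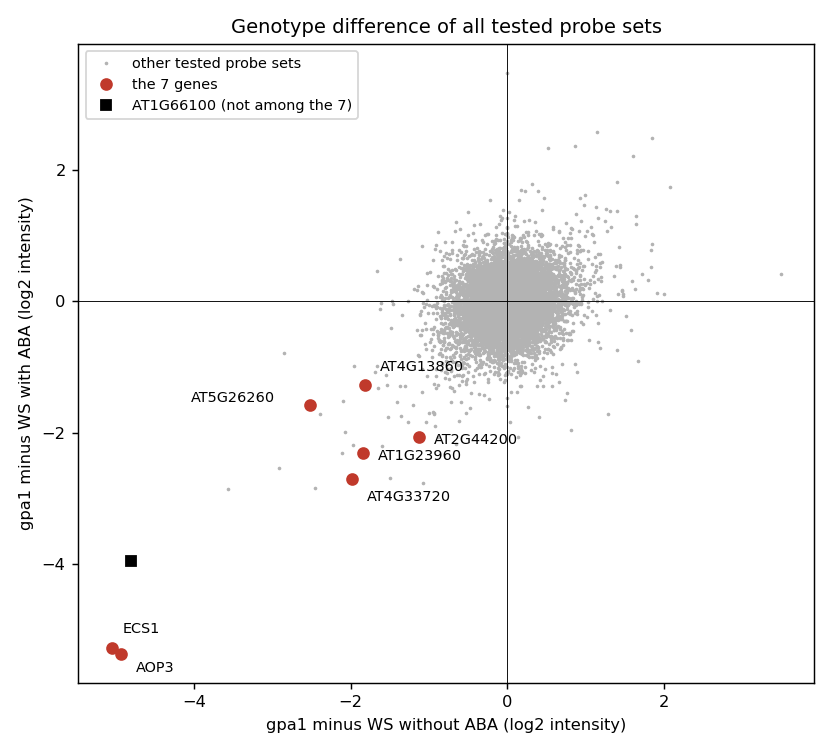
Difference of gpa1 from WS in log2 intensity without ABA (horizontal axis) and with ABA (vertical axis) for every tested probe set, with the 7 genes in red and AT1G66100 as a black square. ECS1 and AOP3 lie near -5 on both axes, with AT1G66100 next to them. The other 5 genes lie to the lower left of most of the cloud, among other probe sets of which some lie further out.

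The 7 genes do not exhaust the pattern, and other genes lie among them in order. Tested probe sets with 1 gene were ordered by the smaller of their gaps without and with ABA. There ECS1, AOP3, AT4G33720, AT1G23960 and AT5G26260 ranked 1, 2, 4, 5 and 7, AT4G13860 ranked 14 and AT2G44200 ranked 17. AT1G66100, which is not among the 7, read 539 and 353 on the WS arrays against 11.3 and 22.9 on those of gpa1, so its WS signal was at least 28.1-fold higher without ABA and 15.4-fold higher with ABA. It reached the floor on 1 gpa1 array and not on the other. Among genes at the floor on both gpa1 arrays, AT4G13860 had an averaged difference of -1.54 on the log2 scale, and CXE20, a carboxylesterase just outside, had -1.47. Among genes above the floor on all arrays, AT4G33720 had -2.34 and AT1G73490 came next with -2.05.

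After AT1G66100, the genes outside the 7 with the widest gap on both pairs were AT1G73490, the subtilase SBT3.12, 2A6, CXE20, AT2G44370, AT1G67865, AT5G53150, AT5G19240 and ZW9. Their WS signals were 2.31-fold to 5.25-fold those of gpa1 without ABA and 2.18-fold to 3.37-fold with ABA, where the values of CXE20 are bounds. In the opposite direction AT5G38020, AT5G45500, AT5G38030, AT5G23830 and AT5G37980 led, all on chromosome 5, with gpa1 signals 2.39-fold to 4.25-fold those of WS without ABA and 2.33-fold to 5.61-fold with ABA, where the value of AT5G37980 with ABA is a bound. By the shape of the 4 values, centred on each gene's mean, AT1G73490 was nearest to the mean profile of the 7 genes, at a Euclidean distance of 0.90 on the log2 scale over 4 arrays. It was followed by 2A6 at 1.16, SBT3.12 at 1.21, CXE20 at 1.38 and AT2G44370 at 1.44. The 7 genes themselves lay between 0.71 for AT4G33720 and 2.32 for ECS1 and AOP3 from that mean.

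The 7 genes were spread over 4 of the 5 chromosomes. AOP3, AT4G13860 and AT4G33720 are on chromosome 4, AT1G23960 and ECS1 on chromosome 1, AT2G44200 on chromosome 2 and AT5G26260 on chromosome 5, with none on chromosome 3. Tested probe sets with 1 gene that were at least 2-fold dimmer in gpa1 on both pairs, the 7 included, numbered 6 of 1852 on chromosome 1, 2 of 1097 on chromosome 2, 1 of 1439 on chromosome 3, 4 of 1051 on chromosome 4 and 6 of 1751 on chromosome 5. AT1G67865, the remaining dimmer gene, was not matched to a chromosome. Those at least 2-fold brighter numbered 8 on chromosome 5, 3 on chromosome 4, 1 on chromosome 2 and 0 on chromosomes 1 and 3.

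**Figure D3:**
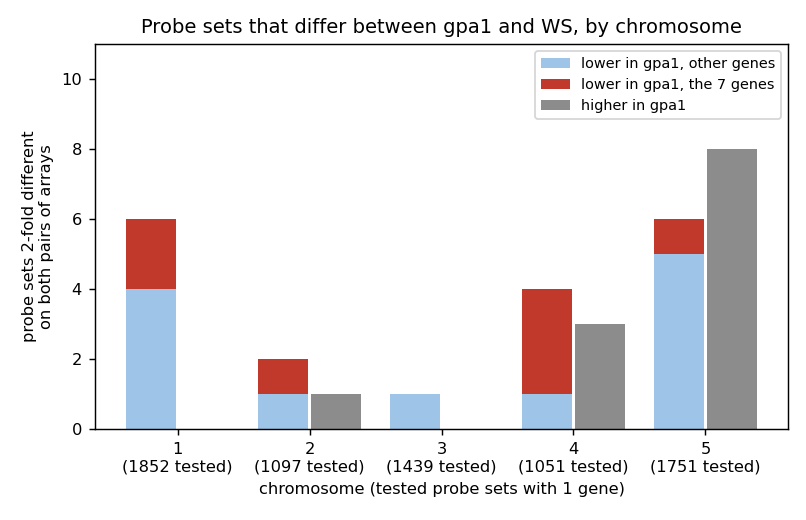
Number of tested probe sets with 1 gene that were at least 2-fold dimmer in gpa1 on both pairs of arrays (red for the 7 genes, light blue for others) or at least 2-fold brighter (grey), by chromosome. Chromosome 4 holds 3 of the 7 genes, and 8 of the brighter probe sets are on chromosome 5.

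Gene order was taken from the RefSeq annotation of assembly TAIR10.1. Distance was counted in tested genes that had a probe set of their own and a chromosome. Probe sets with several genes or no named gene had no place in this order. They hold 5 and 11 of the 36 dimmer probe sets, so dimmer neighbours among them would be missed. Of the 70 nearest tested genes, 5 on each side of each of the 7, 0 were 2-fold dimmer in gpa1 on both pairs and 0 were 2-fold brighter, and their median averaged difference was 0.04 on the log2 scale. No test was made of the neighbours as a set, and with 0.264% of all tested probe sets dimmer by this measure a count of 0 is near the background. The 10 neighbours of ECS1 had averaged differences from -0.24 to 0.22.

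AOP3 and AOP1, the next tested gene of the same tandem family, differed widely. AOP1, a dioxygenase, read 113.6 and 111.4 in WS against 91.8 and 76.0 in gpa1, an averaged difference of -0.43 ± 0.19 (SE) with a limma adjusted p of 0.334 (4 arrays, gpa1 against WS over both treatments). Next to AT4G33720, AT4G33730 of the same CAP family had values of 75.7 and 15.5 in WS, against 69.5 and 18.3 in gpa1. Beside AT5G26260, the next 2 tested genes were dimmer in gpa1 on both pairs by less than 2-fold. AT5G26270 had an averaged difference of -0.73 ± 0.24 (SE) with a limma adjusted p of 0.0860, and AT5G26280 of -0.62 ± 0.15 (SE) with a limma adjusted p of 0.00639. Over all tested probe sets limma called 1.48% lower in gpa1 and 1.42% higher. In that genotype test the control and ABA arrays of a line stand in for replicates. Its p-values were not compared under other settings.

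**Figure D4:**
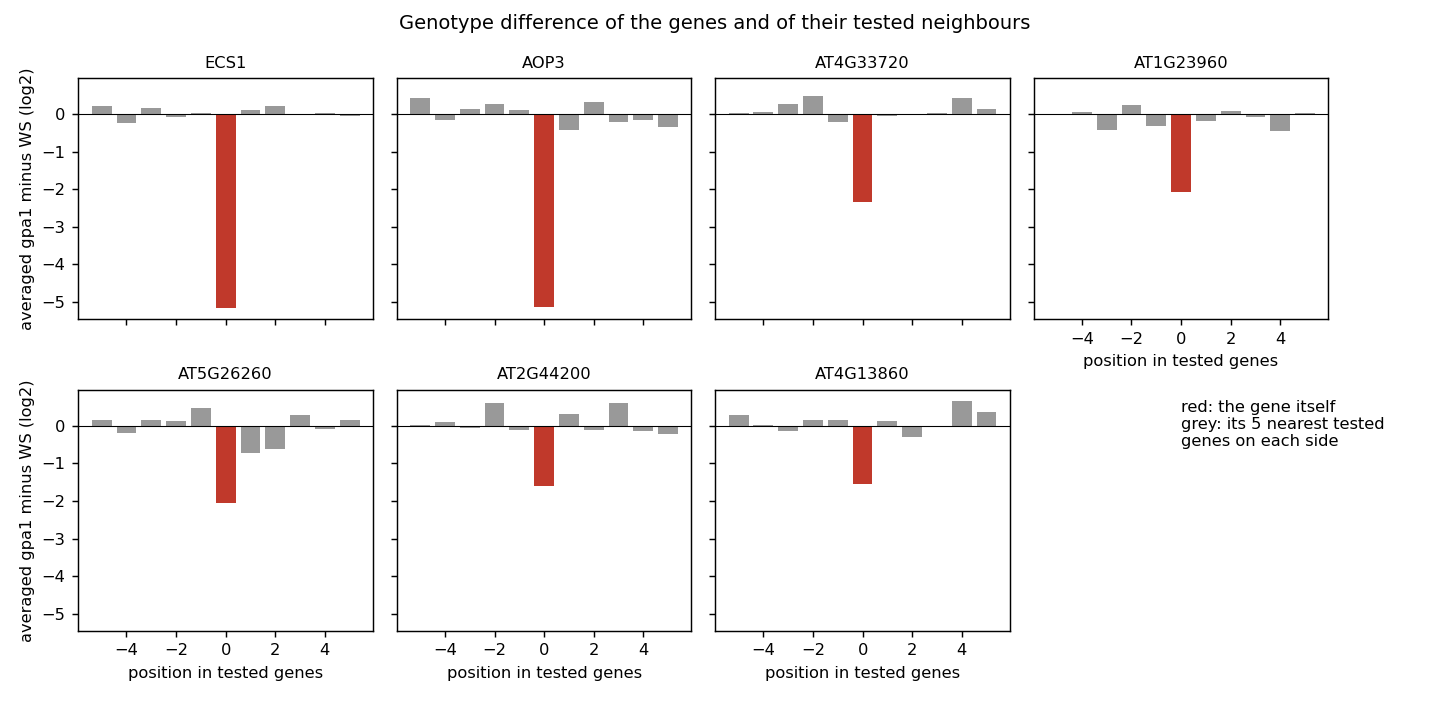
Averaged difference of gpa1 from WS in log2 intensity (vertical axis) of each of the 7 genes (red) and of its 5 nearest tested genes on each side (grey), by position in tested genes. Each grey bar lies between -0.73 and 0.66, and the red bars lie between -5.16 and -1.54.

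AT2G44200 had another dimmer gene close by. AT2G44370, 6 tested genes away, had intensities of 62.7 and 106.3 in WS against 24.6 and 31.7 in gpa1, so WS was 2.55-fold higher without ABA and 3.35-fold higher with ABA. Among genes placed in the gene order, no other with a 2-fold difference on both pairs lay within 10 tested genes of any of the 7. The nearest to AOP3 was MSRB5, 20 tested genes away, which was brighter in gpa1. AT1G23960 and ECS1 were 176 tested genes apart, and so were AOP3 and AT4G13860. Between GPA1 and AT2G44200, which share chromosome 2, lay 524 tested genes, and the 10 tested genes nearest to GPA1 had averaged differences from -0.12 to 0.51.

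The stretch of chromosome 1 between AT1G23960 and ECS1 also held dim probe sets that match several genes, a stretch chosen after its values were seen. Of 8 tested probe sets whose genes all lie in it, 3 were at least 2-fold dimmer in gpa1 on both pairs, against 5 of all 270 tested probe sets with several genes, the 3 included. The first, shared by 5 genes, gave 228.2 and 228.1 in WS against 5.8 and 31.4 in gpa1. The second, shared by 3 genes, gave 144.9 and 163.2 against 16.1 and 28.0. The third, shared by 2 genes, gave 200.9 and 380.4 against 95.3 and 55.7. By locus number the genes of the first, AT1G24800 to AT1G25211, enclose those of the second, AT1G24822 to AT1G25097. The first and second are therefore not separate places in the stretch. Of the 175 tested probe sets with 1 gene in the same stretch, 0 were 2-fold dimmer on both pairs.

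The response to ABA was not itself used to choose the genes, although the choice needed both WS arrays to be bright. That response could be tested in both genotypes for the 2 genes above the floor on all arrays, AT4G33720 and ECS1. Averaged over both genotypes, AT4G33720 fell with ABA and ECS1 did not pass the test. Limma called 42.7% of tested probe sets with ABA, 17.1% higher and 25.7% lower. These shares hold only with dim probe sets filtered out: with no filter limma called 0 higher and 0 lower. Scaling sets the split over all probe sets: it was 2327 higher and 3507 lower as deposited, and 2829 and 2260 with each array centred on its median. With 1 residual degree of freedom, the errors in limma come almost wholly from the spread shared by probe sets of like intensity (median prior degrees of freedom 171) and hardly from the gene's own arrays. For the 5 genes at the floor in gpa1, the gpa1 response is set to 0 by the floor, and no test of them is given.

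For AT4G33720 the averaged ABA change in log2 intensity was -0.48 ± 0.17 (SE), for which limma gave an adjusted p of 0.0137 over 4 arrays, against a median of -0.16 over all tested probe sets. Its signal was 1.09-fold lower with ABA in WS and 1.80-fold lower in gpa1, so its log2 changes in gpa1 and WS differed by -0.73, more than the averaged change itself. The call held under 4 of 8 alternatives, over which the limma adjusted p ran from 0.0136 to 0.720, and it was lost with median centring, with an adjusted p of 0.122. ECS1 had log2 differences between ABA and control of -0.02 (WS) and -0.24 (gpa1). Their average of -0.13 ± 0.15 (SE) did not pass, at a limma adjusted p of 0.486. The sign of that average turned, to 0.01, with quantile normalization and with median centring.

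The 5 genes at the floor in gpa1 could show an ABA response only in WS. AOP3 was 1.35-fold and AT1G23960 1.38-fold brighter with ABA there, and AT2G44200 1.91-fold brighter. AT5G26260 was 1.92-fold and AT4G13860 1.45-fold dimmer with ABA in WS. None of the 7 genes differed 2-fold with ABA in WS, where 15.3% of tested probe sets did. Among 7 genes a count of 0 is near that share. The choice of genes bright on both WS arrays also limits such changes. In gpa1 only ECS1 and AT4G33720 can be compared, and neither differed 2-fold, where 14.7% of tested probe sets did.

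The gap between the genotypes was wider with ABA for ECS1, AOP3, AT4G33720, AT1G23960 and AT2G44200 and narrower for AT5G26260 and AT4G13860. The change of the gap ran from -0.94 on the log2 scale in AT2G44200 to 0.94 in AT5G26260, and in the 5 genes at the floor it only restates the ABA response of WS. It was not tested, since there is 1 array per group. The control probe set for 25S ribosomal RNA read 2236 and 959 in WS, without and with ABA, against 1550 and 1800 in gpa1. It was thus lower with ABA in WS and higher in gpa1, and its part in the change of the gap was not tested.

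Among glucosinolate genes other than AOP3, BCAT4 and GSTU20 were lower in gpa1 and 4 did not pass the test. Of 49 listed genes, 7 had a named probe set and all 7 were tested, AOP3 among them. Each of the other 6 was dimmer in gpa1 on both pairs of arrays by some amount, as were 26.5% of all tested probe sets, with a median averaged difference of -0.44 on the log2 scale against 0.00 for all tested probe sets. With limma 2 of the 6 were lower in gpa1 and 0 higher, where 1.48% of all tested probe sets were called lower. BCAT4 is the aminotransferase that starts the chain elongation of methionine, and GSTU20 is a glutathione transferase of the core pathway.

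BCAT4 had intensities of 573 without and 319 with ABA in WS, and of 269.6 and 122.0 in gpa1. WS was 2.13-fold and 2.61-fold higher, and both genotypes were lower with ABA. The averaged difference of gpa1 from WS was -1.24 ± 0.14 (SE), with a limma adjusted p of 1.61e-12. That p-value rests on the spread shared by probe sets of like intensity, and it was not compared under other settings. GSTU20 read 757 and 310.0 in WS and 418 and 203 in gpa1, without and with ABA. Its averaged difference was -0.73 ± 0.14 (SE), with a limma adjusted p of 6.97e-05. Its WS value with ABA lay below gpa1 control, and so the genotypes separated within each treatment but not across treatments.

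The remaining 4 did not pass the genotype test. UGT74B1, the glucosyltransferase of the core pathway, gave 294.9 and 269.3 in WS against 203.1 and 211.7 in gpa1, with an averaged difference of -0.44 and a limma adjusted p of 0.0743. AOP1 did not pass either (adjusted p 0.334), and AT2G31790 and AT2G25450 had averaged differences of -0.35 and -0.37 with limma adjusted p of 0.396 and 0.456. Without ABA the WS signal of AT2G31790 was 1.54-fold and that of AT2G25450 1.56-fold higher, and with ABA 1.05-fold and 1.06-fold.

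With ABA, 3 of the 6 glucosinolate genes other than AOP3 fell and 1 rose, where 25.7% of all tested probe sets were lower and 17.1% higher. BCAT4 fell 1.80-fold in WS and 2.21-fold in the gpa1 line, GSTU20 2.44-fold and 2.06-fold, and AT2G31790 fell by an average of 0.86 in log2 intensity. AT2G25450, of the side-chain genes, rose by an average of 1.44 in log2 intensity (limma adjusted p 1.65e-11). UGT74B1 and AOP1 had averaged ABA differences of -0.04 and -0.15 and did not pass. AT2G25450 was also the 1 gene with a tested probe set in a list of 12 loci known to vary between accessions, so that list says nothing further about the stocks.

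**Figure D5:**
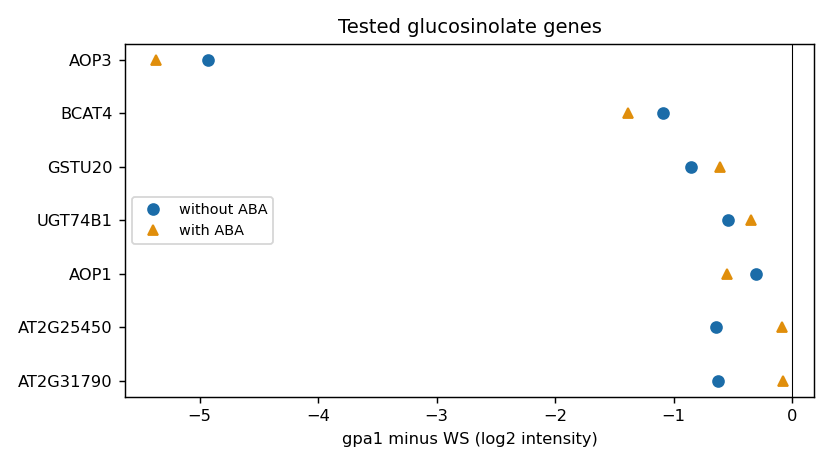
Difference of gpa1 from WS in log2 intensity (horizontal axis) for the 7 tested glucosinolate genes, without ABA (circles) and with ABA (triangles). All 14 points lie below 0, AOP3 near -5 and BCAT4 between -1.38 and -1.09.

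Among tested CAP family genes, AT4G33720 was the 1 gene with a 2-fold genotype difference on both pairs, by choice. Of 21 listed genes 18 had a named probe set and 7 were tested, and the other 6 tested genes had averaged differences from -0.41 to 0.68, with 0 lower and 0 higher by limma or by 2-fold on both pairs. With ABA 6 of the 7 fell and 1 rose, where 25.7% of all tested probe sets were lower and 17.1% higher. AT4G33730 fell by a factor of at least 3.94 (WS) and at least 3.62 (gpa1), since its ABA values lay at the floor. AT4G25790 fell 3.50-fold and 2.62-fold in the same order. AT4G30320 fell 3.06-fold and 3.29-fold, and AT4G25780 rose 1.91-fold and 2.40-fold. The ABA change of AT4G33720, 1.09-fold and 1.80-fold lower, had the smallest average of the 6 that fell.

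The glycine-rich RNA-binding list, which holds AT4G13860, had 1 other tested gene, AT5G54580, with a genotype difference of 0.18 without ABA and -0.66 with ABA. Of a list of 7 defence genes, drawn up for the pathogen response for which ECS1 is known, only PDF1.2b was tested. As the 1 tested gene of the list, PDF1.2b does not stand for that response. PDF1.2b read 26.5 and 30.1 in WS against 300.0 and 40.3 in gpa1, without and with ABA, opposite in direction to ECS1. Its log2 difference of gpa1 from WS was 3.50 without ABA and 0.42 with ABA, too unlike for their average to stand for both.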

How the data were processed

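Transcript levels were measured on Affymetrix ATH1 arrays of whole plants, 1 array for each of 4 groups. The deposited values are linear intensities, 1 per probe set, and the 2%-trimmed mean of each array is the same in the values, a scaling made before deposit. No label or header names the summarising program. Calls of presence were left unused. The 64 control probe sets were set aside. Values were rescaled to the same trimmed mean, raised to a floor of 19.2 (30th percentile) and converted to log2, and a probe set was tested if its mean over the arrays exceeded the 40th percentile. Precision is limited by the number of arrays. For ABA and for genotype alike, p-values rest almost wholly on the spread shared by probe sets of like intensity. No group had replicates whose spread they could measure.

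Probe sets were named through the platform annotation, updated by gene identifier through RefSeq (TAIR10.1): 13513 had 1 gene, 503 several and 8730 none. The coordinates of that assembly served for gene order only. limma 3.58.1 in R 4.3.3 fitted treatment and genotype, with an intensity trend, 1 residual degree of freedom, two-sided tests and Benjamini-Hochberg adjustment over all 13647 tested probe sets at 0.05. The fit was also run on simulated data built with the spread it assumes, without a floor or a genotype difference. That run could not test those assumptions. Comparisons of single arrays have no test.

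The 7 genes and all lists were chosen with earlier results of these data known. Genes outside the 7 were named as neighbours, as next in order, as nearest profiles or as list members; families were not built from gene descriptions, since the tables used hold none. Alternatives were the scaling, the floor, the filter, the intensity trend and the genotype term.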

Additional observations from a re-analysis of the deposited data

How the results depend on the processing

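The direction of all 7 genes, dimmer in gpa1 on each pair of arrays, was the same under quantile normalization, median centring and both other floors. That is no test of the direction, since a floor cannot reverse an order and the genes were chosen for wide gaps. The size of a fold against the floor is set by the floor. A floor at the 15th percentile left 3 of the 7 at it on both arrays of gpa1, and the counts of tested probe sets at the floor in gpa1 or in WS became 1 and 0, where the filter, applied after the floor, passed 4 of the 7. A floor at the 45th percentile left 3 of the 7 2-fold dimmer on both pairs, 21 probe sets were dimmer, and 0 were at the floor in WS. With that floor 1 of the 7, AT2G44200, was called higher with ABA. Both its gpa1 values are at that floor, so the call rests on the WS arrays alone and is not taken as a test of the gene. With the filter at the 60th percentile 16 probe sets were dimmer and 12 brighter, and 1 and 0 were at the floor in gpa1 and in WS, over fewer probe sets tested. Median centring gave 2260 probe sets lower with ABA. The ABA call of AT4G33720 was lost, leaving 0 of the 7 called lower, with median centring, without the intensity trend, without the genotype term and without a filter. With no filter limma found 0 higher and 0 lower probe sets for ABA (5054 at an unadjusted p under 0.05), and 3 were at the floor in WS; the cause was not tested. The averaged ABA change of ECS1, not called in any fit, turned to 0.0137 with quantile normalization and to 0.0146 with median centring. No paired analysis was possible because each group is 1 array with no replicate number; the fit already compares ABA with control within each genotype, and the fit without the genotype term drops that. Leaving out an array leaves the fit no residual degrees of freedom.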
